A study of Rattus norvegicus with 6 samples.

Results

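Complement transcripts were followed in whole rat lung across 9 genes: C1qa, C1qb and C1qc (the chains of C1q), C3 and C4a (the precursors that complement proteases cut), Cfb and Cfi (complement factors B and I), and C3ar1 and C5ar1 (receptors for the fragments C3a and C5a). The genes were taken by symbol from the deposited table of 23802 rows, with the row of highest mean count where a symbol had more than 1, and all 9 passed the filter on low counts that left 15250 rows for testing. They were compared between 3 lungs of wild-type male Sprague-Dawley rats taken 4 weeks after 1 injection of 60 mg/kg monocrotaline (MCT), a pyrrolizidine alkaloid that injures lung vessels and models pulmonary hypertension, and 3 lungs of rats given an equal volume of saline (control). All rats weighed 200 to 250 g, and no age is given in the labels. The labels give both an intraperitoneal and a subcutaneous route for MCT and a subcutaneous one for saline, so the route may have differed between the groups. The labels do not state that the samples came from separate animals, so p-values reflect only sample-to-sample spread, possibly technical. Each sample is called a lung here.

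Complement is a cascade of blood and tissue proteins that marks particles for uptake and draws in leukocytes. In the classical pathway C1q binds antibody or altered surfaces, its partner proteases C1r and C1s cut C4 and C2, and the complex they form cuts C3; the alternative pathway builds a second C3-cutting enzyme from C3 and factor B. Factor I ends the cascade by cutting C3b and C4b, while the small fragments C3a and C5a act on receptors of myeloid cells. The liver makes most circulating complement protein, whereas C1q comes mainly from macrophages and dendritic cells, and lung epithelium and fibroblasts also transcribe several components.

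Summed estimated counts were 14332930 to 17096157 in MCT lungs and 13525912 to 17916134 in control lungs. On the first principal component, with 56.9% of the variance, MCT lungs lay at 24.2 to 63.6, with replicate 1 farthest out, and control lungs at -45 to -37. The lung markers Sftpc, Ager, Scgb1a1, Cldn5 and Foxj1 summed to 13100 to 24600 CPM (a gene's count scaled to the TMM-adjusted total of its library) in MCT lungs and 23800 to 30300 CPM in control lungs, and none of the 5 was called by edgeR (0 also at an unadjusted p under 0.05). The hepatocyte markers summed to 222 to 286 CPM in MCT lungs and 237 to 266 CPM in control lungs, most of it Tf and Fgg, and none of the 5 tested was called (0 also at an unadjusted p under 0.05). Of the same list, Alb stayed at or below 0.0745 CPM in each library, and Apoa2 and Apoh had no count in any of the 6. All 8 mast cell markers rose (555 to 1950 CPM summed in MCT lungs, 33.5 to 48.8 CPM in control lungs), and 4 of 5 mesothelial and 2 of 6 endothelial markers fell. Of 6 monocyte markers 2 rose, with sums that overlapped (195 to 333 CPM in MCT lungs, 180 to 256 CPM in control lungs). Spn was lower in each MCT lung without passing (log2 fold change -0.85, adjusted p = 0.0506). Plac8, the most abundant monocyte marker, did not pass either (log2 fold change -0.79, adjusted p = 0.0592). It had 66.9, 58.6 and 45.8 CPM in MCT lungs and 66.2 to 125.9 CPM in control lungs.

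Of the 9 complement genes, 7 rose in MCT lungs: all 3 C1q chains, C4a, Cfi, C3ar1 and C5ar1, by 3.01-fold to 6.31-fold. C3 and Cfb, which together supply the alternative pathway's C3-cutting enzyme, did not pass. None fell (0 by edgeR's quasi-likelihood test, 0 at an unadjusted p under 0.05, and 0 with DESeq2 or limma-voom). Over all 15250 genes tested, 8.01% were called higher and 5.11% lower. For the same 7 genes every MCT lung lay above every control lung, which was so for 18.4% of all genes tested, and 17.0% had every MCT lung below every control. The median log2 fold change was 1.89 over the 9 genes and -0.01 over all genes tested. The 9 were chosen with earlier results of these data known, so these counts and medians only describe them. In whole tissue, more cells of a type and more RNA per cell cannot be told apart.

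**Figure D1:**
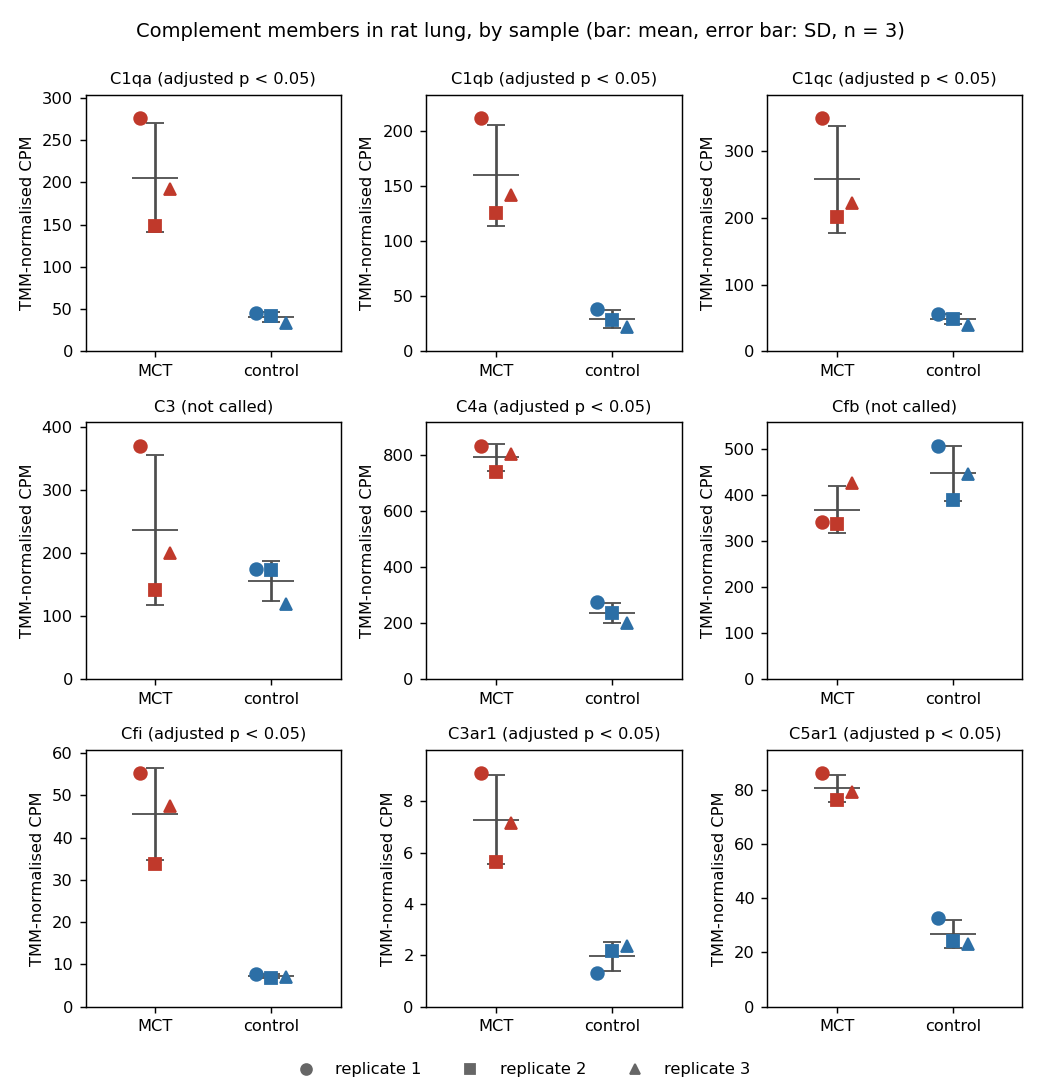
Level of each complement gene (vertical axis, TMM-normalised CPM, from 0) in each of the 3 MCT and 3 control lungs, with the mean as a horizontal bar and the SD as an error bar. In 7 panels all MCT points lie above all control points, while in the C3 and Cfb panels the groups overlap.

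The C1q chains rose together. C1qa (ENSRNOG00000012807), the A chain, stood at 275.9, 148.1 and 192.7 CPM in MCT replicates 1 to 3, against 45.7, 41.8 and 33.9 CPM in control replicates 1 to 3. C1qb (ENSRNOG00000012749), the B chain, had 211.3, 125.3 and 141.8 CPM in MCT lungs and 38.5, 28.4 and 21.9 CPM in control lungs. C1qc (ENSRNOG00000012804), the C chain, had 349.2, 201.7 and 222.0 CPM in MCT lungs and 55.8, 48.6 and 40.3 CPM in control lungs. MCT replicate 1 was the highest and MCT replicate 2 the lowest for each chain, and even the lowest MCT value was above the highest control value. C1qa rose 5.08-fold (log2 fold change 2.35, SE 0.23, adjusted p = 0.00112), C1qb 5.39-fold (2.43, SE 0.26, adjusted p = 0.00141) and C1qc 5.35-fold (2.42, SE 0.23, adjusted p = 0.000992, edgeR quasi-likelihood test). These values rest on 2024 to 5149 counts per MCT library and 381 to 838 per control library.

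The ranges of the chains' proportions overlapped between the groups. On the per-length FPKM scale, C1qa made up 32.0% to 35.5% of the summed C1q level in MCT lungs and 33.4% to 36.1% in control lungs. C1qb made up 25.1% to 26.2% in MCT lungs and 22.6% to 27.3% in control lungs, and C1qc 39.3% to 41.9% in MCT lungs and 39.3% to 41.2% in control lungs. In each of the 6 libraries the order of FPKM levels was C1qc, then C1qa, then C1qb. The assembled C1q protein holds the chains in equal number.

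The 3 C1q genes are direct neighbours on rat chromosome 5 in RefSeq's GRCr8 annotation, in the order C1qa, C1qc, C1qb with 0 protein-coding genes between them. Promoters, taken as 250 bases before to 50 bases after the annotated start, were in RefSeq's GRCr8 table for 6 of the 9 genes and were searched on both strands for 3 short motifs. The motifs were the PU.1-type GAGGAA, the C/EBP-type TTGCNNAA and the E-box CACGTG. They occur in 27.6%, 10.6% and 6.42% of all 33469 promoters of that length, in that order. C1qc moved with C1qa and C1qb, but its promoter was not among the 6. The promoters of C1qa and C1qb are shown because these genes moved together, each 5′ to 3′ on its own strand with motif matches in capitals.
C1qa (GRCr8 chr5:154419884-154420183, minus strand): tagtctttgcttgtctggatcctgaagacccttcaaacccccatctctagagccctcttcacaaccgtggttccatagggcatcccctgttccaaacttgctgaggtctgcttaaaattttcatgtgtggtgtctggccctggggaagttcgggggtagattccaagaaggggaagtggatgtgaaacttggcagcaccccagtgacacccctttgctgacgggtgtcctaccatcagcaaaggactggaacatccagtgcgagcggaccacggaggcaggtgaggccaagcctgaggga
C1qb (GRCr8 chr5:154407778-154408077, minus strand): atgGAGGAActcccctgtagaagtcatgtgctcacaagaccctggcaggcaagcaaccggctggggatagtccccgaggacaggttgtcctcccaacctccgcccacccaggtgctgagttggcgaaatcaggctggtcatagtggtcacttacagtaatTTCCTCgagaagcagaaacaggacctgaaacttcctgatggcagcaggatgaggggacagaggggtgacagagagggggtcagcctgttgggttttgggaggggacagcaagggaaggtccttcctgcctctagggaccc
The capitals mark the PU.1-type letters in C1qb, at -247 to -242 from the start and, on the opposite strand, at -90 to -85. PU.1 is a transcription factor of macrophages. The C1qa window held none of the 3 motifs as spelled here, so none of these spellings was shared by the pair. Other spellings of these motifs were not searched. Among promoters searched but not printed, that of C3 held C/EBP-type letters at -104 to -97. Those of Cfi and C3ar1 held none of the 3 motifs. A match is a description of letters and not a binding site.

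Macrophage transcripts moved with C1q. Of 16 markers of macrophages (none of them a complement gene followed here) 15 were tested, 14 rose and Csf1r, the receptor for the macrophage growth factor, did not pass (log2 fold change 0.25, adjusted p = 0.382). Gpnmb, the most abundant of them, had 985.1, 593.5 and 549.6 CPM in MCT lungs and 175.3, 172.3 and 188.6 CPM in control lungs (log2 fold change 1.99, adjusted p = 0.00197). The markers summed to 2988, 2151 and 2095 CPM in MCT replicates 1 to 3 and to 1162, 1133 and 1100 CPM in control replicates 1 to 3. Set against that sum, the summed C1q CPM was 0.28, 0.221 and 0.266 of it in MCT lungs and 0.12, 0.105 and 0.0874 of it in control lungs. The ratio to this sum was higher in each MCT lung than in any control lung, a description with no test. It depends on the genes listed. In control lungs the largest parts of the sum were Laptm5 (302.9 to 359.8 CPM) and Csf1r (190.6 to 222.0 CPM). These had the smallest log2 fold changes of the tested markers, 0.47 and 0.25. Single markers differed: Trem2 rose 6.42-fold (adjusted p = 0.00195) and Ms4a7 5.90-fold (adjusted p = 0.0115), above the folds of the C1q chains, while Laptm5 rose 1.39-fold (adjusted p = 0.04). The median log2 fold change of the tested markers was 1.41, and their part in the C1q result was not tested.

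**Figure D2:**
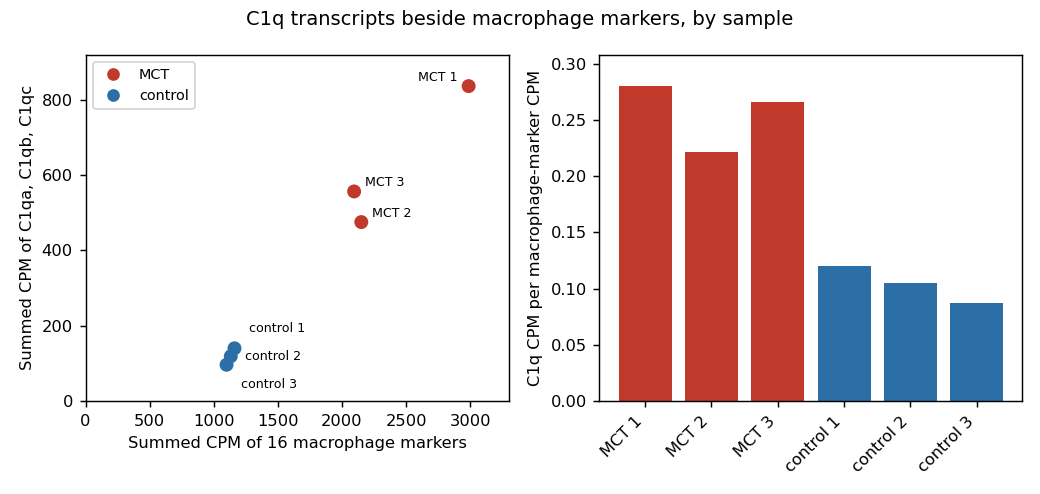
Left, summed CPM of C1qa, C1qb and C1qc (vertical axis) against summed CPM of 16 macrophage markers (horizontal axis), 1 point per library. Right, the ratio of these sums in each library, which is 0.221 to 0.28 in MCT lungs and 0.0874 to 0.12 in control lungs.

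C4a (ENSRNOG00000047657), whose product is cut by C1s to start the classical C3-cutting enzyme, had 834.8, 739.8 and 805.2 CPM in MCT replicates 1 to 3 and 274.5, 236.7 and 202.0 CPM in control replicates 1 to 3. The MCT lungs lay close together, within 1.13-fold of each other, and all were above the controls. C4a rose 3.34-fold (log2 fold change 1.74, SE 0.15, adjusted p = 0.00078, edgeR quasi-likelihood test). The length implied by the counts and FPKM of this row was 670 bases, far below the 5317 bases implied for the C4b row, so the C4a row counts reads over far fewer bases than the C4b row.

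Reads of C4 were divided among 3 rows of the table, and their split is uncertain, since the sources used here do not say how reads matching more than 1 copy were counted. The row named LOC103689965, described there as complement C4-like, had an implied length of 5300 bases. It stood at 1899, 1401 and 1622 CPM in MCT lungs and at 890.4, 693.7 and 890.7 CPM in control lungs, and rose by 0.99 (log2, adjusted p = 0.0108). The C4b row had 75.3, 47.8 and 67.9 CPM in MCT lungs and 24.4, 22.6 and 19.5 CPM in control lungs, and rose by 1.52 (log2, adjusted p = 0.0025). The C4a row took 29.7%, 33.8% and 32.3% of the counts on the 3 rows in MCT lungs and 23.1%, 24.8% and 18.2% in control lungs. With the 3 rows summed, a setting chosen after the data were seen, total C4 was 2809, 2189 and 2495 CPM in MCT lungs and 1189, 953.0 and 1112 CPM in control lungs. The summed row rose by 1.20 (log2, adjusted p = 0.00451), less than the C4a row alone.

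**Figure D3:**
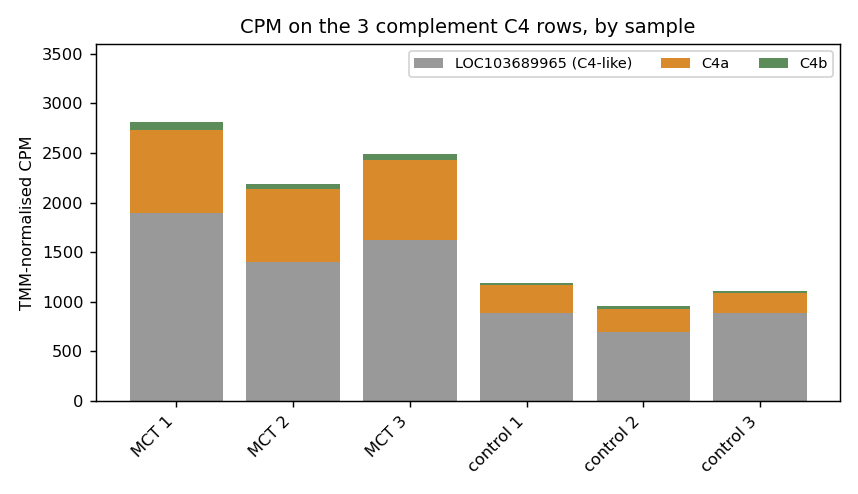
CPM on the LOC103689965, C4a and C4b rows, stacked, in each library (vertical axis from 0). The stack reaches 2189 to 2809 CPM in MCT lungs and 953.0 to 1189 CPM in control lungs, and the LOC103689965 row is the tallest layer in each library.

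The C4a and C4b promoters are shown to compare these copies upstream of their starts, where 279 of 291 aligned bases, or 95.9%, were identical; the transcripts were not compared. Capitals mark an E-box in each, at -90 to -85 from the start in C4a and -95 to -90 in C4b, and PU.1-type letters at -229 to -224 in C4b.
C4a (GRCr8 chr20:4010107-4010406, plus strand): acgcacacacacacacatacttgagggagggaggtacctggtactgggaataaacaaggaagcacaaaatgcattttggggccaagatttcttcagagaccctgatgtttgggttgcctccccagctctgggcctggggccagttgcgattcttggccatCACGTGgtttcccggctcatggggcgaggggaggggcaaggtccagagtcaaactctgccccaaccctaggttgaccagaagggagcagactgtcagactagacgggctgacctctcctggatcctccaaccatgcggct
C4b (GRCr8 chr20:4201729-4202028, plus strand): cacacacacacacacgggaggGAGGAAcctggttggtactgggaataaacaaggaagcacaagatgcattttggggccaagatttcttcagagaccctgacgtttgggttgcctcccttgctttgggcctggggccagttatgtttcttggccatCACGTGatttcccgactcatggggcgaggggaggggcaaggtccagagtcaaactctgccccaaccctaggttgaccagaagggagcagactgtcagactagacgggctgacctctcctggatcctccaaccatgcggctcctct
In RefSeq's GRCr8 annotation C4a lies on chromosome 20, with 12 protein-coding genes between it and C4b and 4 between it and Cfb. Both lie in the stretch of the major histocompatibility complex that holds complement genes.

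C3 and Cfb were the exceptions. C3 (ENSRNOG00000046834), the central component on which the pathways converge, had 369.9, 140.9 and 199.9 CPM in MCT replicates 1 to 3 and 174.0, 173.2 and 118.4 CPM in control replicates 1 to 3. MCT replicate 1 was the highest of the 6 libraries, while MCT replicate 2 lay below 2 of the controls, so the groups overlapped. By edgeR's quasi-likelihood test its log2 fold change of 0.61 (SE 0.32) had an adjusted p = 0.246. Leaving out MCT replicate 1 brought it to 0.14 (adjusted p = 0.761). That lung also had the highest summed neutrophil markers, 610 CPM against 80.8 and 58.4 CPM in the other MCT lungs and 39.5 to 68.8 CPM in control lungs, a sum led by S100a9. Of the 9 neutrophil markers tested, 1 rose, and their part in the C3 values was not tested.

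Cfb (ENSRNOG00000051158), which supplies the protease of the alternative pathway, had 339.9, 335.7 and 425.8 CPM in MCT lungs and 506.4, 388.4 and 444.5 CPM in control lungs. MCT replicate 3 lay above control replicate 2, so the groups overlapped. Its log2 fold change was -0.28 (SE 0.16, adjusted p = 0.263). A second row with the symbol Cfb had 3.25, 4.27 and 10.2 CPM in MCT lungs and 3.26, 6.78 and 5.18 CPM in control lungs, and also did not pass (log2 fold change 0.22, adjusted p = 0.793). Alveolar type 2 cells transcribe C3 and Cfb, and 8 markers of those cells summed to 15500, 21400 and 25100 CPM in MCT replicates 1 to 3 and 26500 to 28600 CPM in control lungs. The most abundant was Sftpc, at 5496, 10390 and 10870 CPM in MCT lungs and 12360 to 14860 CPM in control lungs. Of these 8 markers 2 fell, Slc34a2 (adjusted p = 0.0294) and Abca3 (adjusted p = 0.0495). The other 6 did not pass, with log2 fold changes above 0 for Sftpa1 (0.14) and below 0 for Sftpc, Sftpb, Sftpd (-0.01), Lamp3 and Napsa. The part of these markers in the C3 and Cfb values was not tested.

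Cfi (ENSRNOG00000053400), the protease that inactivates C3b and C4b, showed the largest fold change of the 9. It had 55.2, 33.7 and 47.5 CPM in MCT replicates 1 to 3 and 7.72, 6.85 and 7.01 CPM in control replicates 1 to 3. The controls differed by at most 1.13-fold, and the lowest MCT lung was far above them. Cfi rose 6.31-fold (log2 fold change 2.66, SE 0.20, adjusted p = 0.000593), on 569 to 814 counts per MCT library and 92 to 130 per control library. Factor I works only with a cofactor. The membrane cofactor gene Cr1l did not pass, with 182.2, 186.8 and 156.3 CPM in MCT lungs and 201.1, 157.4 and 188.8 CPM in control lungs (log2 fold change -0.06, adjusted p = 0.811).

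Both anaphylatoxin receptors rose. C5ar1 (ENSRNOG00000047800), the receptor through which C5a attracts neutrophils and macrophages, had 86.0, 76.3 and 79.2 CPM in MCT lungs and 32.7, 24.4 and 23.2 CPM in control lungs. It rose 3.01-fold (log2 fold change 1.59, SE 0.15, adjusted p = 0.000992). C3ar1 (ENSRNOG00000009211), the C3a receptor, was the least abundant of the 9, at 9.09, 5.63 and 7.15 CPM in MCT lungs and 1.33, 2.16 and 2.37 CPM in control lungs. It rose 3.70-fold (log2 fold change 1.89, SE 0.32, adjusted p = 0.00848), on 95 to 134 counts per MCT library and 20 to 44 per control library, and its SE was the widest of the 7 called members. The groups did not overlap for either receptor. On the log2(FPKM + 1) scale, which shrinks changes of low genes, the C3ar1 value was 1.22. The related receptor C5ar2, which binds C5a without classical signalling, had 10.17, 11.85 and 10.02 CPM in MCT lungs and 10.8, 6.70 and 11.7 CPM in control lungs and did not pass (log2 fold change 0.13, adjusted p = 0.754); it was named after its values were seen.

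On the FPKM scale, which allows levels of different genes to be compared, C4a was the highest of the 9 in MCT lungs at 1180 ± 82.8 FPKM (SD, n = 3), though on its short row. After it in MCT lungs came C1qc at 236 ± 75.3, C1qa at 196 ± 63.5, C1qb at 147 ± 43.4, Cfb at 143 ± 19.9, C3 at 45.6 ± 23.3, C5ar1 at 41.1 ± 2.92, Cfi at 21.7 ± 5.37 and C3ar1 at 3.60 ± 0.89 FPKM. In control lungs the order was C4a at 355 ± 44.8, Cfb at 175 ± 22.1, C1qc at 44.2 ± 5.94, C1qa at 38.6 ± 4.67, C3 at 29.9 ± 5.41, C1qb at 27.26 ± 6.995, C5ar1 at 13.7 ± 2.34, Cfi at 3.45 ± 0.19 and C3ar1 at 0.97 ± 0.30 FPKM. In MCT lungs the ranges of neighbours overlapped among C1qc, C1qa, C1qb and Cfb, and between C3 and C5ar1. In control lungs they overlapped between C1qc and C1qa and between C3 and C1qb. Cfb was above each C1q chain in every control lung, and in MCT lungs it lay below C1qc and C1qa in each library.

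Beyond the 9, a list of 59 genes was read, called other complement genes here. It also holds genes that are not part of the cascade, such as Calr, Lrp1 and the C1qtnf genes. Of the 59, 55 were in the table under their symbol and 45 were tested. Of these, 16 rose, 2 fell and 27 did not pass (edgeR quasi-likelihood test), against 8.01% higher and 5.11% lower over all genes. The count of genes that rose was 9 without control replicate 3, and the count that fell was 1 without control replicate 2, control replicate 3 or MCT replicate 1. The median log2 fold change was 0.26 over the 45 and 1.89 over the 9. Both lists were chosen with earlier results of these data known, so this difference is only a description.

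In the classical pathway 3 of 5 tested genes rose. C1s, the protease that cuts C4 and C2, had 344.5, 186.7 and 226 CPM in MCT lungs and 109.5, 75.2 and 111.1 CPM in control lungs and rose 2.56-fold (adjusted p = 0.0111). C1r, which activates C1s, rose 1.72-fold (adjusted p = 0.0148). C1r missed the threshold when control replicate 2 was left out (adjusted p = 0.0591) and when control replicate 3 was (adjusted p = 0.0615). C4b was described above, and C2 was at 135.4, 230.1 and 191.7 CPM in MCT lungs and 151.9 to 159.8 CPM in control lungs (log2 fold change 0.26, adjusted p = 0.379). Fibroblasts transcribe C1r and C1s, and 2 of 9 fibroblast markers rose, the collagen genes Col3a1 and Col1a1. The 9 summed to 4070 to 4660 CPM in MCT lungs and 2490 to 2750 CPM in control lungs. Most of that sum was Col3a1 (2528 to 3190 CPM in MCT lungs, 1302 to 1463 CPM in control lungs). The other 7 did not pass, with log2 fold changes above 0 for Col1a2, Lum and Tcf21 and below 0 for Dcn, Pdgfra, Pi16 and Dpt. The part of these markers in the C1r and C1s results was not tested. The genes of the C1 complex, C1q with C1r and C1s, were thus all called higher, with larger folds for the C1q chains than for the proteases; the difference between these folds was not tested.

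Of 6 tested lectin pathway genes 2 rose, both sugar-binding starters of the pathway. Mbl1, a mannose-binding lectin, rose 4.88-fold at low levels, with 4.48, 3.91 and 7.36 CPM in MCT lungs and 1.46, 0.819 and 0.917 CPM in control lungs (adjusted p = 0.00816, and a log2 value of 1.48 on the log2(FPKM + 1) scale against 2.29). Fcna, ficolin A, rose 2.25-fold (adjusted p = 0.00703). The most abundant member, the scavenger receptor gene Colec12, did not pass (0.28 on the log2 scale, adjusted p = 0.165). Masp2, also of this pathway, was lower in each MCT lung than in any control without passing (log2 fold change -0.63, adjusted p = 0.118). It had 6.17, 6.76 and 4.34 CPM in MCT lungs and 10.58, 7.82 and 8.47 CPM in control lungs. In the alternative pathway both other genes rose: Cfd, the protease factor D that cuts factor B, had 40.5, 28.9 and 29.2 CPM in MCT lungs and 13.5, 9.76 and 14.4 CPM in control lungs (adjusted p = 0.00514), and Cfp, the gene of properdin, which stabilises the alternative enzyme, rose 2.06-fold (adjusted p = 0.00223). Cfd is also an adipocyte gene. Adipocyte markers summed to 74.6 to 148 CPM in MCT lungs and 14.2 to 22.8 CPM in control lungs, more than any other of them from Fabp4 (70.65 to 138.6 CPM in MCT lungs, 7.785 to 15.42 CPM in control lungs), and Fabp4 was the only 1 of 3 tested that rose. Adipoq did not pass (log2 fold change 0.47, adjusted p = 0.503), nor did Cidec, at 1.42, 2.43 and 3.22 CPM in MCT lungs and 4.19, 3.43 and 4.80 CPM in control lungs (log2 fold change -0.81, adjusted p = 0.154), and Plin1 was at or below 0.27 CPM in each library. Their part in the Cfd result was not tested.

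In the terminal pathway, which forms the membrane attack complex, 2 of 5 tested genes rose. C7 had 375.3, 263.3 and 309.2 CPM in MCT lungs and 150.4, 113.4 and 173.5 CPM in control lungs and rose 2.17-fold (adjusted p = 0.00946). C6 had 717.2, 103.6 and 199.8 CPM in MCT lungs and 56.4, 21.1 and 9.54 CPM in control lungs. Its groups did not overlap, but its libraries differed widely within each group. C6 rose by 3.56 (log2, SE 0.83, adjusted p = 0.0273). Leaving out MCT replicate 1 gave C6 a value of 2.39 (adjusted p = 0.0551), and leaving out control replicate 1 gave 4.49 (adjusted p = 0.0281). C6 also missed the threshold when control replicate 2 was left out (adjusted p = 0.107) and when control replicate 3 was (adjusted p = 0.0859). C5, named after its values were seen, had 5.22, 1.36 and 0.56 CPM in MCT lungs and 1.86, 27.4 and 22.0 CPM in control lungs, so control replicate 1 stood with the MCT lungs (log2 fold change -2.84, adjusted p = 0.0873). C8a and C8b, whose products join the complex after C7, had at most 1 count in any library.

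Beside Cfi, among soluble regulators 1 of 5 tested genes rose and 1 fell. Serping1, the C1 inhibitor, had 306.0, 280.3 and 217.4 CPM in MCT lungs and 163.1, 115.6 and 135.3 CPM in control lungs and rose 1.94-fold (adjusted p = 0.0117), but missed the threshold with control replicate 3 left out (adjusted p = 0.0537). Cpn1, the carboxypeptidase chain that inactivates C3a and C5a, had 16.6, 23.5 and 26.3 CPM in MCT lungs and 40.5, 33.9 and 39.0 CPM in control lungs and fell by 0.77 (log2, adjusted p = 0.0284). Cpn1 missed the threshold when MCT replicate 1 or any single control was left out (adjusted p = 0.0535 to 0.0985). Of 8 tested membrane regulators 1 fell and 7 did not pass. Cr2, a complement receptor of B cells, had 9.63, 11.9 and 11.2 CPM in MCT lungs and 26.02, 20.03 and 25.94 CPM in control lungs and fell by 1.14 (log2, adjusted p = 0.0055). B cell markers fell beside it, 3 of 4 tested, with a sum of 25.9 to 39.9 CPM in MCT lungs and 45.6 to 117 CPM in control lungs, and their part in the Cr2 result was not tested. Cd59, the inhibitor of the membrane attack complex and the most abundant of this group, had 684.0, 592.3 and 590.1 CPM in MCT lungs and 676.5, 355.2 and 571.7 CPM in control lungs (log2 fold change 0.22, adjusted p = 0.559, turning to -0.002 without control replicate 2).

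Of 7 further receptors tested 3 rose. Itgb2, the beta chain of complement receptors 3 and 4, rose 1.54-fold (adjusted p = 0.0132), and missed the threshold with MCT replicate 3 left out (adjusted p = 0.0535) or control replicate 3 left out (adjusted p = 0.0629). Calr, calreticulin, which binds C1q, rose 1.86-fold (adjusted p = 0.0239) and its surface partner Lrp1 1.68-fold (adjusted p = 0.0173). Calr missed the threshold in 4 of the 6 fits that left out 1 sample (MCT replicates 1 and 3, control replicates 2 and 3, adjusted p = 0.0597 to 0.0975). Lrp1 missed it with MCT replicate 3 (adjusted p = 0.0623) or control replicate 3 (adjusted p = 0.0769) left out. Among proteins that C1q recognises or that share its domain, 3 of 7 tested rose. Ptx3, a pentraxin that binds C1q, had 95.9, 7.23 and 28.7 CPM in MCT lungs and 2.728, 2.160 and 1.995 CPM in control lungs and rose by 4.26 (log2, adjusted p = 0.0154). The Ptx3 value was 2.97 without MCT replicate 1 (adjusted p = 0.0154), while Ptx3 missed the threshold with control replicate 2 left out (adjusted p = 0.0693), with control replicate 3 left out (adjusted p = 0.071) and under limma-voom (3.515, adjusted p = 0.116). It was 2.84 on the log2(FPKM + 1) scale and 3.47 on the log2(FPKM + 0.1) scale. C1qtnf6 rose 2.72-fold (adjusted p = 0.00282) and C1qtnf5 2.12-fold (adjusted p = 0.0139). C1qtnf5 missed the threshold with control replicate 2 left out (adjusted p = 0.0585). C1qtnf1, the most abundant of the group, had 51.1, 81.6 and 54.5 CPM in MCT lungs and 57.8, 59.2 and 58.02 CPM in control lungs and did not pass (log2 fold change 0.10, adjusted p = 0.76, turning to -0.145 without MCT replicate 2).

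**Figure D4:**
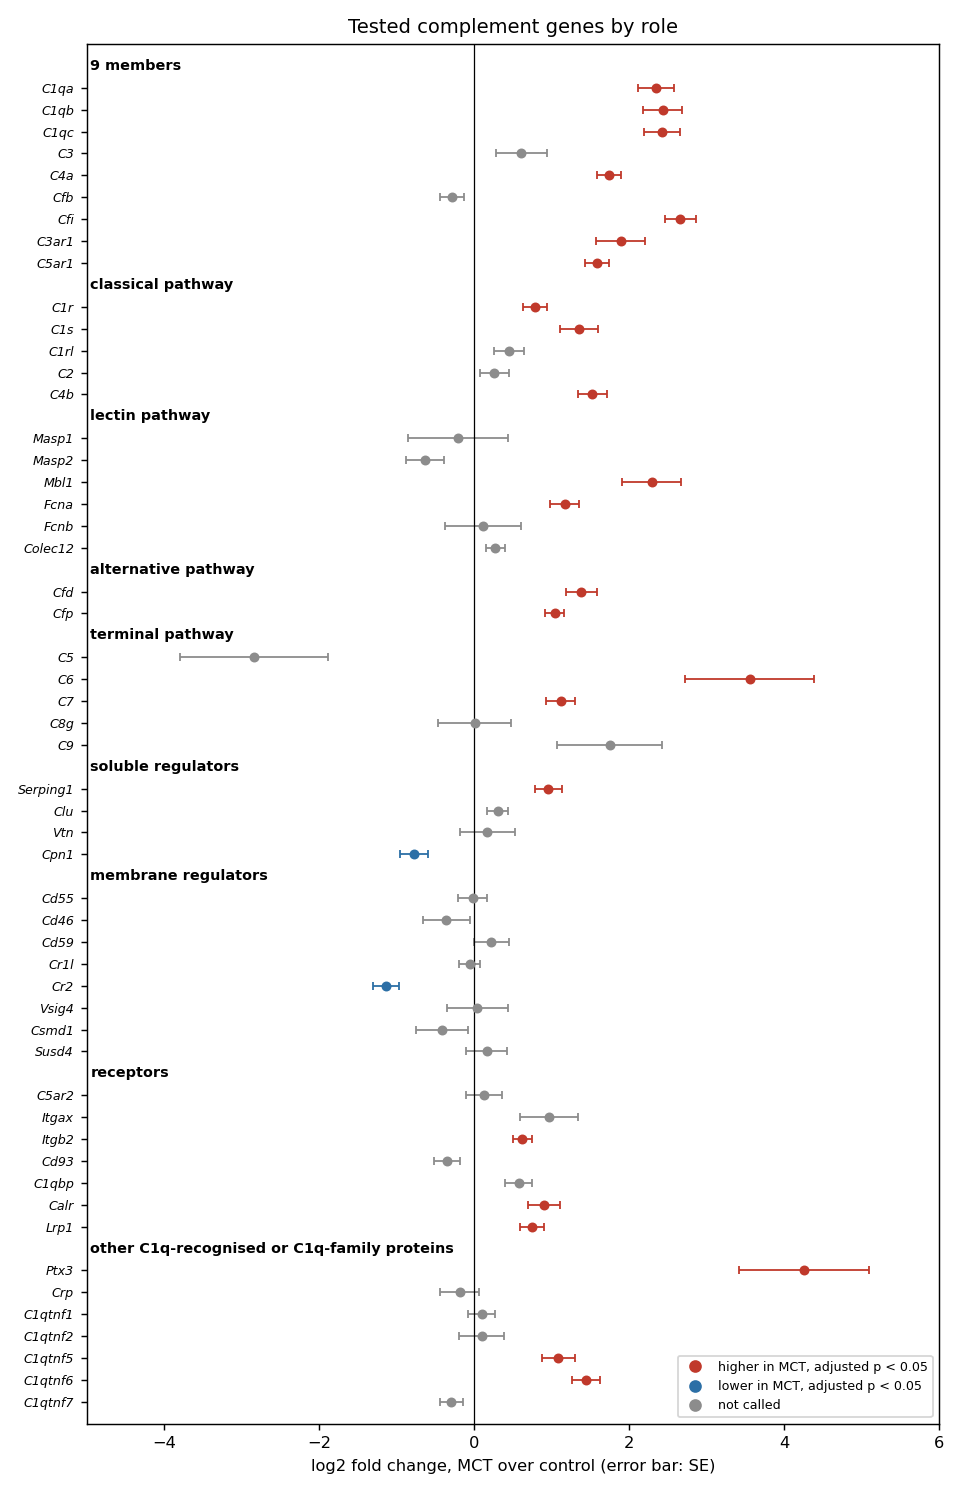
Log2 fold change, MCT over control, with its SE (horizontal axis) for the 9 complement genes and 44 of the 45 other tested genes of the wider list, grouped by role (rows). Red points passed the test as higher, blue points as lower, and grey points did not pass. C1q, C4 and the C1 proteases lie to the right. Among the membrane regulators Cr2 lies to the left as lower, and the others, which did not pass, lie nearer to 0.

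Across the 6 libraries, the genes whose log2 CPM was most like that of each member were found among 11088 named genes with a mean of at least 5 CPM. C1qa was most like Ms4a2 (Pearson r = 0.999, n = 6), Lactb and Cks1b, C1qb most like Stab1 (r = 0.999), Aspm and Bub1, and C1qc most like Aspm, Tubb6 (r = 0.999) and Cks1b. Cfi was most like Mcpt1 (r = 0.999), Osr1 and Pdlim7, C4a most like Eif4ebp1 (r = 0.998), Zfp367 and Ada. C3ar1 was most like Incenp (r = 0.999), HSPG2 and Bub1b, and C5ar1 most like Apold1 (r = 0.998), Tgfb1i1 and Taldo1. Ms4a2 and Mcpt1 are mast cell genes, and Aspm, Bub1, Bub1b and Incenp act in cell division. All of these genes rose in MCT lungs, and the libraries fall into 2 groups, so any gene with a clear group difference reaches a high r: C1qa had 522 genes at an r of at least 0.95 and Cfi 503. C3 and Cfb had 22 and 15 such genes. C3 had Pus3 (r = 0.976) and Phospho2 (r = 0.975) among its 3 most like genes, and Cfb most like Nfyb (r = 0.984), Suco and Ccdc146, none of which passed the test.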

How the data were processed

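PolyA RNA of 6 rat lung samples was sequenced. The authors deposited, per the file headers, estimated counts and FPKM per gene in every sample. Bowtie2, TopHat2 2.0.3.12 and the build Rnor_6.0 are named in the submitters' processing notes; for the counting tool, strand use and multi-mapped reads nothing is given in the sources used here. Between 90.7% and 91.5% of counts above 0 were whole, and all were rounded for the tests, which had been fixed for counts. Samples were grouped by their titles. The 6 samples were fitted together, without covariates, by the quasi-likelihood method of edgeR 4.0.16 in R 4.3.3, after TMM normalization and filterByExpr (count of 10, total of 15), with Benjamini-Hochberg adjustment over 15250 genes. A gene is called at an adjusted p under 0.05, and all adjusted p-values come from this fit unless another is named. CPM are scaled to effective library size, and fold changes are MCT over control. The test was checked on simulated counts with the same dispersion of 0.03 for all genes and 200 changed genes. Spread that differs between genes was not simulated, so this check does not give the error rate in these data. Pairs within a group differed beyond sampling noise (chi-square per degree of freedom 22.1 to 49.7). Counts carry no molecular identifiers.

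Alternatives were DESeq2 1.42.0, limma-voom (limma 3.58.1), other scaling and filters, limma on log2 of the deposited FPKM plus 1 or 0.1, rows of a symbol summed, each sample left out and the replicate number as a block. The named genes are the 9 members, called genes and the most abundant gene of each role among 59 other complement genes, and the 3 genes most like each member. C2, C5, C5ar2, Cr1l, C8a, C8b and Masp2 were added after their values were seen. So were the single cell type markers named other than the most abundant tested one of each list. A gene that this rule names is not reported here. The members and lists were chosen with earlier results of these data known. Promoters are from RefSeq (GRCr8), a build other than that of the files, and were used, with its gene order, for sequence and neighbours only.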

Additional observations from a re-analysis of the deposited data

How the results depend on the processing

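Each of the 9 members kept its direction and its side of the threshold under all 17 alternatives, so 7 were called higher and 0 lower throughout. The lowest and highest log2 values were 2.08 and 2.53 for C1qa, 2.32 and 2.83 for Cfi, 1.20 and 1.86 for C4a (the lowest with its rows summed), 0.14 and 0.88 for C3, and -0.40 and -0.18 for Cfb. Leaving out 1 sample gave 9 to 19 other complement genes called higher and 1 to 3 lower. Over all genes it gave 481 to 1394 higher (481 without control replicate 3, 562 without control replicate 2, 712 and 735 without MCT replicates 1 and 3) and 212 to 978 lower (212, 273, 343 and 324 without the same samples); fewer samples were fitted. DESeq2 called 1611 higher and 1131 lower. Leaving out 1 sample also turned C1qtnf1 (-0.145 to 0.226) and Cd59 (-0.002 to 0.427); the cause was not tested. The replicate numbers of the titles showed no sign of pairing the samples, with correlations of same-numbered deviations of -0.06, -0.07 and 0.00. With 3 samples per group these values cannot exclude a pairing. With the replicate block 917 genes were called higher and 546 lower, and the members' calls were 7 and 0. C3ar1 rests on the fewest counts of the 9, 20 to 44 per control library.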
